A study of Saccharomyces cerevisiae with 40 samples.

Results

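Among 8 spores of an evolved line of budding yeast, Saccharomyces cerevisiae, 4 carried the chromosome III signal of the haploid ancestor, and these 4 spores were set against that ancestor. Each spore was measured on 1 one-colour Affymetrix array, of 40 arrays in the whole series. The labels call the line evo39. They do not spell out that name, and the study's design includes lines kept at 39 °C. The members were chosen by their own values: for each spore the median log2 difference from the second haploid ancestor array was taken over the genes of chromosome III, less the median over all other nuclear genes, and spores below 0.4 were kept. Spores 3, 4, 6 and 8 had values of 0.0211, 0.0049, 0.014 and 0.0051. Spores 1, 2, 5 and 7 had values of 0.7907, 0.7871, 0.7557 and 0.7912. The highest spore inside the threshold was spore 3 and the lowest outside it was spore 5. These values made the split and are given without a test.

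The haploid ancestor array is labelled haplid WT, with no further genotype. The labels give the spores no genotype, mating type, tetrad or clone either. Spores and ancestor alike were kept under stress-free conditions through 18 generations up to the sampling, so heat itself was absent then. Each label marks a spore as a replicate, and nothing says how the spores are related, so p-values measure the spread between these spores. The ancestor is 1 array in this normalization run, and a second array of it (title haploid ancestor) belongs to another run. With 4 values against 1, an exact permutation test cannot go below 0.2.

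Spores are the haploid products of meiosis, so a line with an extra chromosome gives spores with and without it. Those without it can carry other heritable changes of the line, though not every spore need carry the same ones. Yeast meets heat with chaperones under Hsf1 and with a general stress programme under Msn2 and Msn4, while genes for making ribosomes go down. Respiration is run by nuclear-encoded subunits of the mitochondrial chain, whose transcripts depend on the carbon source and on growth rate.

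The deposited values are log2 intensities made by the authors, and a difference is given as spore minus ancestor on that scale. Of 5449 genes matched to probe sets, 5332 exceeded background on at least 2 of the 9 arrays of the run, and 5187 of these lie off chromosome III. The 145 genes tested on chromosome III entered the fit and are described without a test, since they made the split.

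The 4 spores showed no other chromosome displaced as a whole. On the other 15 chromosomes the median difference, less that of the rest of the genome, ran from -0.0288 to 0.014. Taking means in place of medians widened this to -0.117 to 0.0288. The spread between genes was also small: the SD of the log2 difference over genes was 0.268, 0.305, 0.342 and 0.387 for spores 3, 4, 6 and 8 against the ancestor. Between pairs of these spores it ran from 0.182 (spores 4 and 6) to 0.345 (spores 3 and 4). The median was 0.274 over the 6 pairs of these spores and 0.323 over the 4 pairings with the ancestor, and both ranges overlapped. Spores 6 and 8 were nearer to each of the other 3 than to the ancestor, and spore 3 was nearest to the ancestor. These SDs include the mating-type genes described below, where spore 3 was near the ancestor and spores 4, 6 and 8 were not. MFA2, for example, was at -0.47 in spore 3 and at -7.56, -7.52 and -7.63 in spores 4, 6 and 8. The order of the spores without these genes was not tested. Spores 1, 2, 5 and 7 lay at 0.381 to 0.480 from the ancestor, with spore 2, at 0.381, within the range of the 4 spores.

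**Figure D1:**
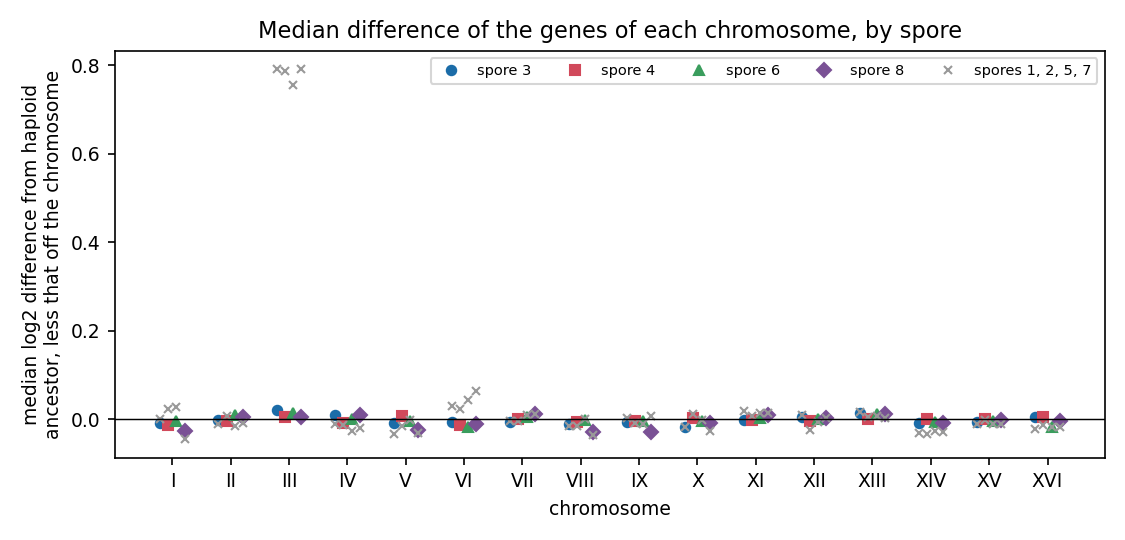
Median log2 difference from the haploid ancestor over the genes of each chromosome, less the median over all other nuclear genes, for each spore (x axis, chromosome; y axis, log2 units). Spores 3, 4, 6 and 8 lie between -0.0288 and 0.0211 on every chromosome, and spores 1, 2, 5 and 7 (grey crosses) stand at 0.7557 to 0.7912 on chromosome III.

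Across the genes off chromosome III, no gene passed an adjusted p of 0.05 in limma with Benjamini-Hochberg adjustment (0% higher and 0% lower of 5187). At an unadjusted p below 0.05 there were 250 higher and 206 lower genes. The fit held the 4 spores, the other 4 spores and the ancestor as separate groups, with the lone ancestor array assumed to vary like the spores. Without spore 4 the same fit called 54 genes higher (1.04%) and 42 lower (0.810%), and without spore 3 it called 0 higher and 8 lower (0.154%). Without spore 6 or spore 8 it called 0. The genes called lower without spore 3 were mostly the a-specific mating genes described below. In these, spore 3 was near the ancestor and spores 4, 6 and 8 were not. All 4 spores lay above the ancestor for 1195 genes (23.0%) and below it for 1336 (25.8%). For 207 genes (3.99%) the nearest spore was higher than the ancestor by more than the range of the 4 spores, and for 243 (4.68%) it was lower by more than that range.

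A comparison that does not use the split put all 8 spores in 1 group, and it called 0 genes higher or lower (0%) after adjustment. Before adjustment, 276 genes were higher and 295 lower in limma at a p below 0.05. Keeping the 2 spore classes apart and setting their equal mean against the ancestor called 32 genes higher (0.617%) and 1 lower (0.0193%). All of these comparisons subtract the same ancestor array.

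Genes of oxidative phosphorylation were the list most often above the ancestor in every spore. Of 43 members, 38 lay above it in all 4 spores and 0 below it in all 4, against 23.0% and 25.8% of all genes. None passed the test for these spores alone. The median difference was 0.26 for the 4 spores, and 0.26, 0.21, 0.30 and 0.33 for spores 3, 4, 6 and 8, against -0.01 over all genes. For both spore classes together, 19 of the 43 were called higher (0.617% of all genes).

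SDH2, the iron-sulfur subunit of succinate dehydrogenase (complex II), stood at 11.05, 10.69, 10.92 and 11.01 in spores 3, 4, 6 and 8, against 10.20 in the ancestor. Every spore lay above the ancestor, with spore 4 nearest to it. The fitted difference was 0.72 ± 0.13 (SE, 4 spores against 1 array, limma adjusted p = 0.212), and the adjusted p for both classes was 0.0156. RIP1, the Rieske iron-sulfur protein of complex III, stood at differences of 0.76, 0.46, 0.61 and 0.69. Its fitted difference was 0.63 ± 0.10 (SE, adjusted p = 0.212 in limma). SDH1, the flavoprotein of complex II, was at 0.88, 0.38, 0.54 and 0.82, and CYT1, cytochrome c1, at 0.72, 0.36, 0.70 and 0.70. In these 4 genes, too, spore 4 was the lowest of the spores and still above the ancestor.

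By complex, all 4 members of complex II lay above the ancestor in every spore, with a median difference of 0.52. The bc1 complex with cytochrome c had 10 of 11 members above and a median of 0.40, CYC7 (a minor cytochrome c isoform) being the exception. Cytochrome oxidase, complex IV, had 8 of 9 above with a median of 0.11, the exception being COX5B, the hypoxic form of subunit V. The ATP synthase with its inhibitors had 14 of 16 above and a median of 0.22, and the NADH dehydrogenases had 2 of 3 above and a median of 0.38. The median was highest for complex II and lowest for complex IV, an order that was not tested. COR1 and QCR9 of complex III and COX7 of complex IV had fitted differences of 0.44 ± 0.07, 0.50 ± 0.09 and 0.37 ± 0.06 (SE), each with an adjusted p of 0.212 in limma. COX4, a nuclear-encoded subunit of complex IV, had a narrow spread, at 0.29, 0.29, 0.30 and 0.30.

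The position of this list within each array bears on the lone ancestor array. The median percentile of the 43 genes among all genes of an array was 84.3, 83.2, 84.2 and 85.0 in spores 3, 4, 6 and 8, against 79.6 in the ancestor array of the same run. The other haploid ancestor array, from another run, had a median percentile of 84.5. The spores were thus above the ancestor array of their own run, and their percentiles were near that of the other. The 2 ancestor arrays also differed in other lists, at 57.3 and 30.8 for general stress genes. Run and array cannot be told apart in this, and the part that the single array plays in the result was not tested.

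**Figure D2:**
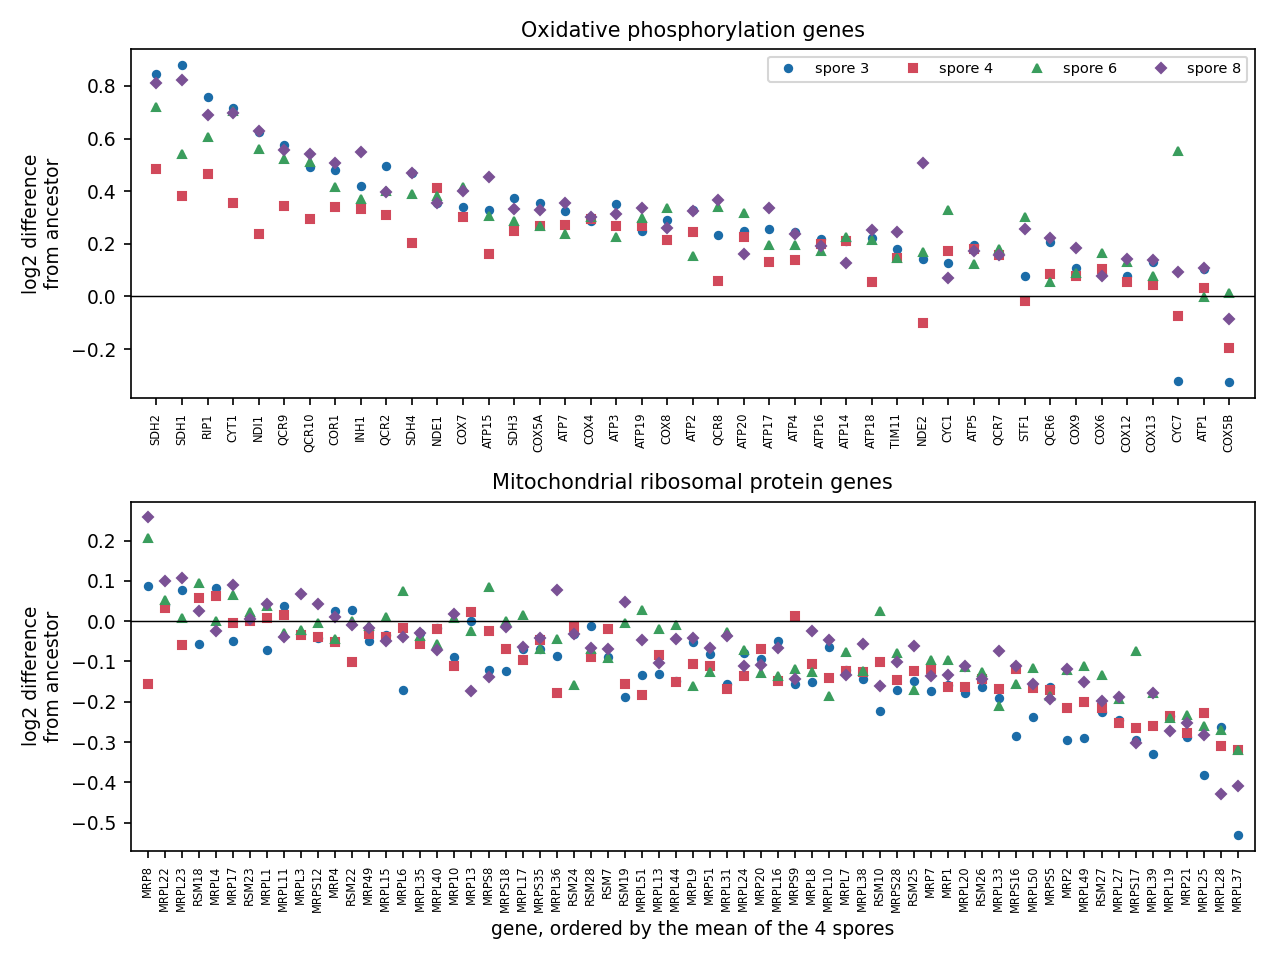
Log2 difference from the haploid ancestor (y axis) for each oxidative phosphorylation gene (top) and each mitochondrial ribosomal protein gene off chromosome III (bottom), ordered by the mean of spores 3, 4, 6 and 8. Points are single spores and the line at 0 is the ancestor: 38 of 43 genes in the top panel have all 4 points above it, and 41 of 65 in the bottom panel have all 4 below it.

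Mitochondrial ribosomal proteins, which translate the few proteins encoded in mitochondrial DNA, lay slightly below the ancestor. Of 65 members, 41 were below it in all 4 spores and 1 was above it in all 4, against 25.8% and 23.0% of all genes. The median difference was -0.09, and none passed the test. MRPL37, a large-subunit protein, had the lowest fitted difference, at -0.53, -0.32, -0.32 and -0.41. MRPL28, MRPL25 and MRP21 were at -0.32, -0.29 and -0.26 in the fit. The median percentile of the list was 60.0, 61.7, 64.0 and 63.9 in spores 3, 4, 6 and 8, against 64.7 in the ancestor of the same run. The ancestor array of another run was at 60.6, within or near the range of the spores.

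FBP1, fructose-1,6-bisphosphatase of gluconeogenesis, had the highest fitted difference in the list of the TCA and glyoxylate cycle. Its differences were 1.65, 1.84, 2.00 and 1.93 in spores 3, 4, 6 and 8. The spores lay close together and far above the ancestor, yet the fit gave 1.86 ± 0.68 (SE, adjusted p = 0.528 in limma), since the shared spread includes spores 1, 2, 5 and 7, at 0.01, 2.00, 1.15 and -0.14. The list as a whole had 12 of 26 members above the ancestor in all 4 spores and 5 below it. The shares over all genes were 23.0% above and 25.8% below. The median difference of the list was 0.13. MLS1, malate synthase, was at 0.43, 0.08, 1.49 and 0.73. SFC1, the mitochondrial succinate-fumarate carrier, was at 0.23, 0.63, 1.25 and 0.44. DIC1 went the other way, below the ancestor in all 4 spores, at -0.70, -0.28, -0.12 and -0.88.

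A group of heat shock genes was high in spores 3, 6 and 8 and at the level of the ancestor in spore 4. HSP42, a small heat shock protein that gathers misfolded proteins, was at 11.32, 10.13, 11.26 and 11.38 in spores 3, 4, 6 and 8, against 9.98 in the ancestor. Spores 3, 6 and 8 lay together, and spore 4 lay next to the ancestor. BTN2 and CUR1, a related pair of sorting factors for misfolded proteins, were at 1.16, 0.09, 1.59 and 1.36, and at 1.29, -0.05, 1.54 and 1.34. HSP78, the mitochondrial disaggregase, was at 1.09, -0.12, 1.19 and 1.24, and SIS1, a cytosolic J-protein, at 0.72, 0.03, 0.80 and 0.70. Spores 1, 2, 5 and 7 were all high for HSP42, at 1.16, 1.50, 1.41 and 1.25, so 7 of the 8 spores stood above spore 4 and the ancestor.

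With all 4 spores, none of these passed the test: HSP42 gave 1.04 ± 0.41 and HSP78 0.85 ± 0.43 (SE), with adjusted p of 0.54 and 0.584 in limma. Without spore 4 the fitted difference was 1.34 for HSP42 and 1.17 for HSP78. Spore 4 was the spore that lay apart in these genes. Leaving it out raises the difference and narrows the spread by construction, so these values are a description. The list did not move as a whole, since its median was 0.02, with 5 members above the ancestor in all 4 spores and 3 below it. HSP30, a plasma membrane heat shock protein, lies on chromosome III and is given as a description, at 1.60, 1.17, 2.44 and 3.02.

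Among the general stress genes of Msn2 and Msn4, too, spore 4 was the lowest of the 4 spores by median. The median over 41 members was 0.29, -0.05, 0.27 and 0.44 in spores 3, 4, 6 and 8, and 13 lay above the ancestor in all 4, against 23.0% of all genes. Leaving out spore 4 raised that count to 29 of 41 (31.3% of all genes on the same count). TSL1 and TPS2, of the trehalose synthase complex, were at 1.23, -0.01, 0.95 and 1.29, and at 0.96, 0.09, 0.83 and 1.04. GLC3, the glycogen branching enzyme, was at 0.84, -0.02, 0.62 and 0.94, and XBP1, a stress-induced repressor, at 1.21, 0.14, 0.71 and 1.17. DDR2, a small stress-induced protein, was at 1.84, 0.13, 0.80 and 2.14. GPD1, the glycerol phosphate dehydrogenase of osmotic stress, was at 0.95, 0.20, 0.64 and 0.87.

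MSN4 itself, which encodes one of the 2 stress activators and was picked with MSN2 and COM2 after the values were seen, differed from its targets in being above the ancestor to a like degree in every spore. It was at 8.86, 8.80, 8.92 and 8.86 in spores 3, 4, 6 and 8, against 8.33 in the ancestor. The fitted difference was 0.53 ± 0.10 (SE, adjusted p = 0.212 in limma), and for both spore classes 0.55 ± 0.09 with an adjusted p of 0.0237. MSN2, its partner, was at 0.53, 0.17, 0.31 and 0.40. COM2, a transcription factor related to both, was at 0.84, 0.58, 0.83 and 1.46. For the general stress list the median percentile was 67.2, 59.3, 69.6 and 73.3 in spores 3, 4, 6 and 8, against 57.3 in the ancestor of the same run and 30.8 in that of another run.

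Ribosome biogenesis genes, which build and process pre-ribosomes, showed the opposite sign in the same spores. The median over 52 members was -0.22, 0.03, -0.27 and -0.28 in spores 3, 4, 6 and 8. In all 4 spores 16 lay below the ancestor and 1 above it, against 25.8% and 23.0% of all genes. Without spore 4, 47 of 52 lay below the ancestor in the remaining 3 (35.8% of all genes). Leaving out the spore that lay apart raises this count by construction, so it is a description. LTV1, an export factor of the small subunit, was at -0.49, -0.05, -0.60 and -0.66, and NOP7, a large-subunit processing factor, at -0.50, -0.12, -0.45 and -0.56. Transcripts of the cytosolic ribosomal proteins themselves stayed near the ancestor, with a median difference of 0.01 over 127 members. Over all genes the SD of spore 4 against the ancestor, 0.305, was within the range of the other 3. That SD includes the mating-type genes described below, in which spores 4, 6 and 8 were far from the ancestor and spore 3 was near it. It was not taken without them.

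**Figure D3:**
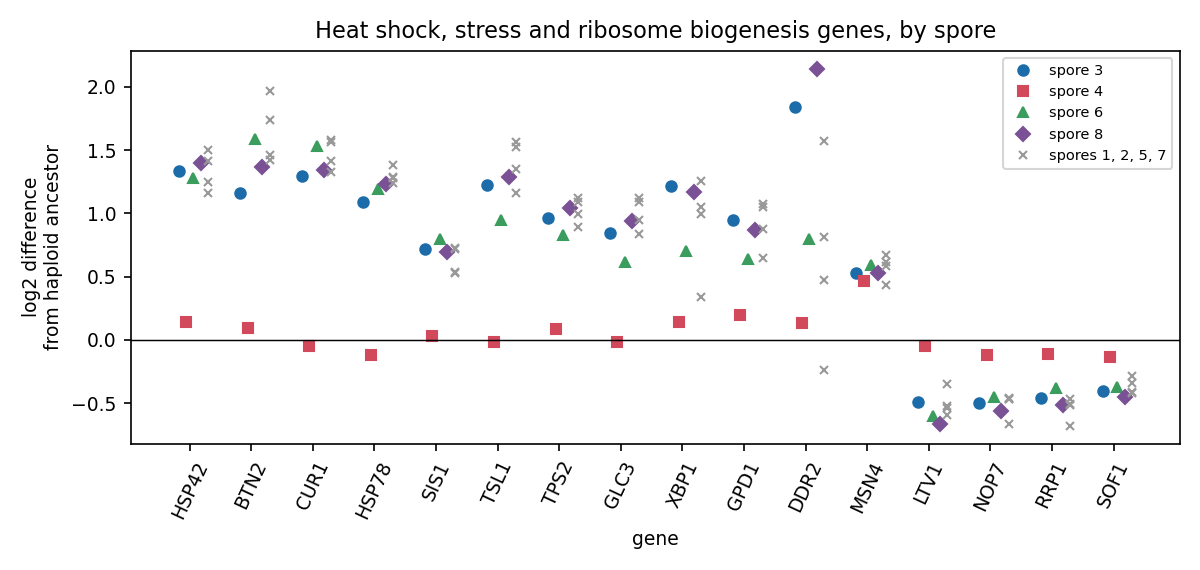
Log2 difference from the haploid ancestor (y axis) of heat shock, general stress and ribosome biogenesis genes in spores 3, 4, 6 and 8 (coloured) and in spores 1, 2, 5 and 7 (grey crosses). Spore 4 (squares) lies between -0.14 and 0.20 for every gene shown except MSN4, at 0.47, while spores 3, 6 and 8 lie above 0.5 for the stress genes and below -0.3 for the ribosome biogenesis genes.

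Genes of methionine synthesis and sulfur assimilation lay below the ancestor more often than other genes did. Of 29 members, 20 were below it in all 4 spores and 2 above it, against 25.8% and 23.0% of all genes, with a median difference of -0.26. MET2, the homoserine acetyltransferase, had the narrowest spread among the leading members, at -0.53, -0.51, -0.54 and -0.46. STR3, a peroxisomal cystathionine lyase, was at -0.82, -0.05, -0.75 and -0.71. MMP1, the S-methylmethionine permease, and MHT1, the methyltransferase that uses its substrate, had fitted differences of -0.56 ± 0.20 and -0.55 ± 0.21 (SE). SEO1, a putative permease, was at -1.47, -0.05, -0.54 and -1.30. None passed the test. The median percentile of the list was 35.4, 45.9, 36.3 and 38.0 in spores 3, 4, 6 and 8, against 50.4 in the ancestor of the same run and 33.5 in the ancestor of the other run.

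Phosphate genes were low in spores 3 and 8 and closer to the ancestor in spores 4 and 6. PHO89, the sodium-phosphate cotransporter, was at -2.40, -0.43, -1.36 and -2.45 in spores 3, 4, 6 and 8. PHO11, a secreted acid phosphatase with a near-identical copy whose signal may not be separable, was at -2.05, -0.36, -0.46 and -2.45. PHO5, the main secreted acid phosphatase, was at -1.01, 0.11, -0.13 and -1.28. PHM6, of unknown function, was at -1.38, -0.27, -0.58 and -1.50. PHO84, the high-affinity phosphate transporter, was near the ancestor in every spore, between -0.16 and 0.02. Of 20 members, 8 lay below the ancestor in all 4 spores and 0 above it, against 25.8% and 23.0% of all genes. None passed the test.

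Iron and copper uptake genes gave 16 of 34 members below the ancestor in all 4 spores and 3 above it. The shares over all genes were 25.8% below and 23.0% above. The median difference was -0.12. FIT2 and FIT3, cell wall mannoproteins that retain siderophore iron, were at -1.41, -0.47, -0.25 and -1.02, and at -0.87, -0.31, -0.16 and -0.58. FRE7, a ferric and cupric reductase, was at -1.27, -0.55, -0.15 and -0.93. In all 3 genes spore 3 was lowest and spore 6 nearest to the ancestor.

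Cell wall genes lay above the ancestor in every spore for 30 of 46 members and below it for 2, against 23.0% and 25.8% of all genes. The median difference was small, at 0.14. YPS1 and YPS3, aspartyl proteases at the cell surface, were at 0.48, 0.27, 0.42 and 0.50, and at 1.32, 0.36, 0.32 and 1.51. SPI1, a wall protein of weak acid resistance, was at 0.52, 0.15, 0.34 and 1.20, and YGP1, a secreted glycoprotein, at 0.79, 0.10, 0.16 and 0.78. None passed the test. The median percentile of the list was 88.8, 89.4, 89.1 and 87.9 in spores 3, 4, 6 and 8, against 87.5 in the ancestor of the same run and 87.8 in that of another run.

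In 5 genes of unrelated function, set together after their values were seen, spores 3 and 8 lay farther from the ancestor than spores 4 and 6 did. BNA4, kynurenine monooxygenase of NAD synthesis, was at 0.96, 0.13, 0.11 and 0.98. NCA3, an SUN-family protein, was at 1.67, 0.09, 0.19 and 1.81, and OPT2, an oligopeptide transporter, at -1.96, -0.31, -0.37 and -2.50. SMK1, a meiotic kinase, was at 1.11, 0.16, -0.05 and 1.03, and AAC3, the anaerobic ADP/ATP carrier, at -0.92, -0.30, -0.25 and -1.16. They form no list, and no count goes with them.

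The 10 genes off chromosome III with the widest range among the 4 spores were mostly genes of mating type. In yeast, a cells make a-factor and the receptor for alpha-factor, and alpha cells make the reverse pair, under control of the mating-type locus on chromosome III. The ancestor expressed the a-specific set. Spore 3 carried that pattern, and spores 4, 6 and 8 carried the alpha pattern.

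MFA2, which encodes a-factor, stood at 12.69 in spore 3 and at 5.60, 5.65 and 5.54 in spores 4, 6 and 8, against 13.17 in the ancestor. STE2, the alpha-factor receptor, stood at 12.84 in spore 3 and at 7.42, 7.24 and 6.82 in spores 4, 6 and 8, against 13.19 in the ancestor. Spore 3 lay next to the ancestor and the other 3 far below it. The differences of MFA1 (a-factor), AGA2 (a-agglutinin), BAR1 (the protease that cleaves alpha-factor), STE6 (the a-factor exporter) and ASG7 in spore 3 were -1.24, -0.84, -0.55, -0.24 and -0.30. In spores 4, 6 and 8 MFA1 was at -5.09, -5.07 and -5.20, and STE6 at -3.70, -3.69 and -3.77. AXL1, the protease that matures a-factor, was near the ancestor in all 4, between -0.11 and 0.10, and belongs to the haploid-specific genes that both mating types express. Without spore 3 the fitted difference of MFA2 was -7.57. Spore 3 was set apart by these same genes, so leaving it out lowers the fit by construction and is no test.

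The alpha-specific genes showed the reverse. MF(ALPHA)1, the main alpha-factor gene, stood at 5.17 in spore 3 and at 14.07, 14.07 and 13.68 in spores 4, 6 and 8, against 5.16 in the ancestor. STE3, the a-factor receptor, was at -0.73, 4.02, 3.89 and 3.07. MF(ALPHA)2, SAG1 (alpha-agglutinin) and AFB1 (the a-factor barrier) were lower in spore 8, at 2.38, 0.89 and 2.67, than in spore 4, at 5.87, 3.20 and 3.22, or in spore 6, at 5.39, 3.08 and 3.09. The 3 alpha spores were therefore not alike in every alpha-specific gene.

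On chromosome III the mating-type genes followed the same pattern, as a description. HMLALPHA1 stood at 4.48 in spore 3 and at 11.41, 11.23 and 11.04 in spores 4, 6 and 8, against 4.30 in the ancestor. It was not above background in spore 3 or in the ancestor. HMRA1 stood at 9.48 in spore 3 and at 3.55, 3.68 and 3.38 in spores 4, 6 and 8, where it was not above background, against 9.70 in the ancestor. Each has a near-identical copy at the mating-type locus, and the array cannot tell the copies apart.

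Haploid-specific genes, which both mating types share and a/alpha cells shut off, were on in every spore of the group. The mean level of 7 such markers was 10.34, 10.64, 10.61 and 10.36 in spores 3, 4, 6 and 8, against 10.54 in the ancestor. GPA1, the G protein of the pheromone receptor, lay within -0.29 and 0.10 of the ancestor. In spores 1, 5 and 7 the mean was 6.59, 6.73 and 6.47, and in spore 2 it was 10.49. The 4 spores thus expressed these genes as the haploid ancestor did. Of 5 sporulation markers the mean was 6.32, 6.47, 6.46 and 6.25 in spores 3, 4, 6 and 8, against 6.58 in the ancestor, and DIT2 was not above background on any of these arrays. The sporulation markers were, on average, no higher in any of the 4 spores than in the ancestor.

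The 15 haploid-specific genes tested off chromosome III had medians of -0.20, 0.11, 0.09 and -0.26 in spores 3, 4, 6 and 8. In all 4 spores 1 lay above the ancestor and 2 below it, against 23.0% and 25.8% of all genes. FUS3, AGA1 and SST2 were among the 4 members with the largest fitted differences. FUS3, the mating MAP kinase, was at -0.52, 0.31, 0.09 and -0.60. AGA1, the anchor of the agglutinins, was at -0.90, 1.34, 1.00 and -0.66, and SST2, which damps the pheromone signal, at -0.57, 0.42, 0.15 and -0.82. FUS1, a fusion protein encoded on chromosome III, was at -1.59, 0.67, 0.34 and -1.43. The remaining gene among the 10 with the widest range was YGR109W-A, a Ty3 transposon reading frame whose copies are near-identical, at -2.27, 1.36, 0.69 and -1.84.

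**Figure D4:**
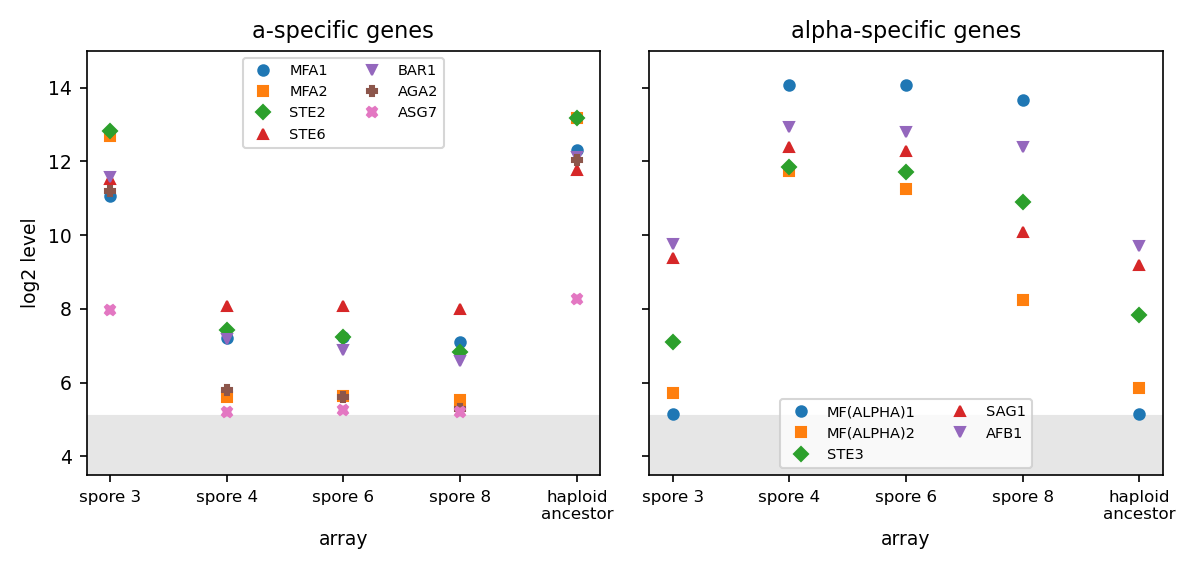
Log2 level (y axis) of a-specific genes (left) and alpha-specific genes (right) in spores 3, 4, 6 and 8 and in the haploid ancestor (x axis), with the range at or below background shaded. The a-specific genes are high in spore 3 and the ancestor, and the alpha-specific genes are high in spores 4, 6 and 8, where MF(ALPHA)1 stands at 14.07, 14.07 and 13.68.

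Common auxotrophic markers did not separate the spores. HIS3, LYS2, ADE2, CAN1 and LYP1 lay within -0.29 and 0.20 of the ancestor in every spore. URA3 and MET17 were not above background in any spore or in the ancestor. LEU2, on chromosome III, lay near background, at 5.12, 4.97, 5.22 and 4.86 in spores 3, 4, 6 and 8, against 5.13 in the ancestor.

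Several subtelomeric genes were among those whose nearest spore differed from the ancestor by more than the spores' own range. The genes of this and the next paragraph were picked after their values were seen, except COS12 and COS8, which led their list. YLL066W-B had the largest such difference, at -1.97, -1.91, -2.15 and -1.84, with a fit of -1.97 ± 0.32 (SE, adjusted p = 0.212 in limma). Taking only its brightest probe set gave -0.71. YFL065C and YFL064C, reading frames of subtelomeric Y' repeats, were at -1.31 ± 0.40 and -0.84 ± 0.27 in the fit. YBL112C, of the same kind, was at -0.60, -0.56, -0.80 and -0.91. These frames have near-identical copies at several chromosome ends, and a probe set may read more than 1 of them.

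YIR042C, an uncharacterized subtelomeric gene, was at 0.80, 0.92, 1.25 and 1.25. Its fit was 1.05 ± 0.19 (SE, adjusted p = 0.212 in limma). COS12, of the DUP380 membrane protein family, was at 1.34, 0.72, 1.08 and 1.24, and COS8, of that family too, at 0.91, 0.47, 0.84 and 0.94. STP4, a zinc finger protein, was at 1.62, 1.40, 1.68 and 2.32, and TPO2, a polyamine exporter, at 1.32, 0.99, 1.38 and 1.90. ROX1, the repressor of hypoxic genes, was at 0.78, 0.64, 0.63 and 0.71, and BMH2, a 14-3-3 protein, at 0.31 ± 0.05 in the fit (SE, adjusted p = 0.212 in limma). All 4 spores lay above the ancestor for each gene named in this paragraph. The list of subtelomeric COS genes had 4 of 9 members above the ancestor in all 4 spores and 1 below it. The shares over all genes were 23.0% above and 25.8% below, and the median difference of the list was 0.17.

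Against spores 1, 2, 5 and 7, the 4 spores had 73 genes higher (1.41%) and 83 lower (1.60%) off chromosome III at an adjusted p of 0.05 in limma, although the 2 classes had been split by chromosome III values of the same arrays. Centring each array on its median off chromosome III gave 43 higher and 124 lower. Removing spore 2 gave 255 higher and 137 lower. Removing spore 1 gave 20 and 46. In spores 1, 5 and 7 the haploid-specific markers were low, which spores 3, 4, 6 and 8 did not show, so mating-type state and chromosome III cannot be told apart in this comparison, except in spore 2. AXL1, which was called higher at 2.04 ± 0.49 (SE, adjusted p = 0.0495), was at -2.50, -2.69 and -2.76 in spores 1, 5 and 7 and at -0.33 in spore 2.

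Of 43 oxidative phosphorylation genes, 12 were lower in the 4 spores than in the other 4 (1.60% of all genes) and 0 higher (1.41%). Of these 12, 7 belonged to the ATP synthase and its inhibitors, 3 to complex III and 2 to complex IV. COX7, a subunit of complex IV, was at 0.34, 0.30, 0.42 and 0.40 in spores 3, 4, 6 and 8, against 0.60, 0.59, 0.62 and 0.68 in spores 1, 2, 5 and 7. The classes did not overlap, and the difference was -0.26 ± 0.04 (SE, adjusted p = 0.00355 in limma). QCR7, of complex III, was at 0.16, 0.16, 0.18 and 0.16, against 0.35, 0.37, 0.39 and 0.32, with a difference of -0.20 ± 0.02 (SE, adjusted p = 0.000678 in limma). Leaving out each of the 8 spores in turn gave 6 to 13 such genes, the lowest without spore 1 or spore 5, and the fit over all 17 haploid arrays with no run term gave 0.

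The clearest single gene in this comparison was YIR042C. It was at 0.80, 0.92, 1.25 and 1.25 in spores 3, 4, 6 and 8, against 2.47, 2.42, 2.74 and 2.57 in spores 1, 2, 5 and 7, a difference of -1.50 ± 0.12 (SE, adjusted p = 7.33e-05 in limma). YDR541C, a dihydrokaempferol reductase homologue near a chromosome end, was at 0.68, 1.09, 1.23 and 0.48, against 2.18, 2.02, 2.31 and 2.21 (difference -1.31 ± 0.16, SE, adjusted p = 0.00112). COS12 gave a difference of -1.68 ± 0.34 and COS8 one of -0.50 ± 0.11 (SE), both past the threshold. In each of these genes both spore classes lay above the ancestor, the 4 spores by less. FRE7 differed in sign from the genes named before it in this paragraph, with the 4 spores below the ancestor and the other 4 above it. Its difference between the classes was -1.06 ± 0.22 (SE, adjusted p = 0.0261 in limma). Many other genes called lower also had all 4 spores below the ancestor. QDR2, for example, ran from -0.51 to -0.14, and YLL066W-B from -2.15 to -1.84.

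The diploid lines evolved in heat for 450 generations give a side-by-side reading, each against the diploid ancestor array of its own run. The 4 gradual-heat lines share 1 ancestor array, and of the abrupt-heat lines only line 2 has one in its run. They share no array with the spores, and levels were not compared across runs. Oxidative phosphorylation genes had medians of 0.26, 0.21, 0.30 and 0.33 in spores 3, 4, 6 and 8, against 0.25, 0.30, 0.27 and 0.22 in gradual-heat lines 1 to 4 and -0.10 in abrupt-heat line 2. Mitochondrial ribosomal proteins had medians of -0.12, -0.11, -0.07 and -0.07 in the spores, against 0.22, 0.22, 0.20 and 0.20 in the gradual-heat lines and -0.08 in the abrupt-heat line.

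YIR042C was above its ancestor in the spores by 0.80 to 1.25, in the gradual-heat lines by 2.11, 2.11, 2.20 and 2.18 and in abrupt-heat line 2 by 1.05. COS12 was at 3.10, 2.84, 2.84 and 2.86 in the gradual-heat lines and at 2.02 in abrupt-heat line 2. YLL066W-B was at -0.98, -0.95, -0.96 and -0.98 in the gradual-heat lines and at 0.11 in the abrupt-heat line. MSN4 was at 0.21, 0.34, 0.30 and 0.13 in the gradual-heat lines and at -0.38 in abrupt-heat line 2, and STP4 at 0.24, 0.13, 0.18 and 0.09 and at 0.29. COS8 was at 0.10, 0.09, 0.04 and 0.01 in the gradual-heat lines and at 0.16 in the abrupt-heat line. BMH2 lay between -0.02 and 0.03 in all 5 lines. General stress genes had medians of 0.10, 0.18, 0.11 and 0.09 in the gradual-heat lines and 0.38 in the abrupt-heat line.

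**Figure D5:**
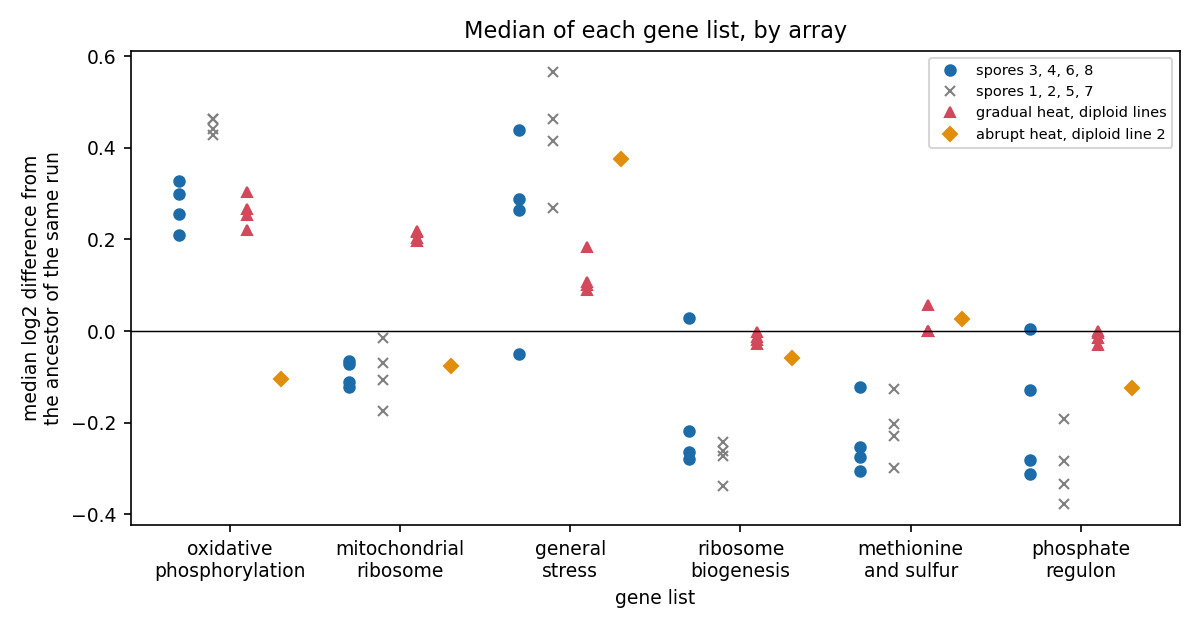
Median log2 difference from the ancestor array of the same run (y axis) over the genes of 6 lists (x axis), with 1 point per array: spores 3, 4, 6 and 8, spores 1, 2, 5 and 7, 4 gradual-heat diploid lines and abrupt-heat diploid line 2. Oxidative phosphorylation is above 0.2 in all 8 spores and all 4 gradual-heat lines, and mitochondrial ribosomal proteins are below 0 in all 8 spores and near 0.2 in the gradual-heat lines.

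Several lists stayed near the ancestor, and none of their members passed the test. The median difference was 0.01 for 37 proteasome genes, 0.04 for 22 genes of glycolysis and fermentation, 0.06 for 10 histone genes and 0.05 for 27 ergosterol genes. It was 0.02 for 18 hexose transporters, among which HXT5, a moderate-affinity transporter of slow growth, was highest at 0.71, 0.22, 0.80 and 0.99. Amino acid genes under Gcn4 had a median of -0.03 over 47 members, with ARG3, ornithine carbamoyltransferase, at -0.58, 0.27, -0.63 and -0.81. Seripauperins had a median of -0.04 over 16 members, with PAU8 and PAU18 low in spore 3, at -1.70 and -1.77, and these genes too have near-identical copies. CIT2, the peroxisomal citrate synthase and the classic retrograde target, lies on chromosome III and is given as a description, at -0.68, -0.63, -0.34 and -0.54.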

How the data were processed

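Each array's deposited log2 value per probe set was made by the authors with RMA, per the submitters' processing notes. RMA quantile-normalizes arrays together, and its version is not given in the sources used here. Identical values on different arrays placed 8 spores and the second haploid ancestor array in 1 run, which was inferred and is not labelled. The platform annotation tied probe sets to 5449 genes listed for the R64 assembly, and 47 genes with more than 1 probe set were averaged. Background was the 95th percentile of 1746 other-species probe sets, 5.009 to 5.097 in this run. Genes above it on at least 2 of 9 arrays were fitted with limma 3.58.1 in R 4.3.3 as 3 groups (6 residual degrees of freedom, trended prior), with Benjamini-Hochberg adjustment at 0.05. The fit was also run on simulated data in which the ancestor array varied like the spores. That run cannot check this assumption for the real lone array. No scanner files were used, so signal over background limits precision only through the probe set values.

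The members, lists and tests were chosen with earlier results of these data known. Named genes were to be the 12 highest and 12 lowest called genes off chromosome III (none were called), the 10 with the widest range among the 4 spores, all mating-type and marker genes, and up to 4 members per list with the largest fitted differences. Others are said to be picked after their values were seen, which also holds for genes named from a count. Alternatives changed normalization, filter, probe sets, arrays, prior variance and weights.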

Additional observations from a re-analysis of the deposited data

Results flagged for a closer look

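Single spores stood apart from the other 3 by Dixon's test at the 95% level, a test that flags about 1 in 20 groups by chance, over 117 named genes. Spore 4 was near the ancestor for HSP42 at 0.14, for CUR1 at -0.05, for HSP78 at -0.12 and for SIS1 at 0.03, while spores 3, 6 and 8 ran from 1.28 to 1.40, 1.29 to 1.54, 1.09 to 1.24 and 0.70 to 0.80. Spore 4 also stood apart for CYT1 at 0.36 and for STR3 at -0.05. In both, spores 3, 6 and 8 lay farther from the ancestor on the same side. Spore 6 stood apart for QCR7 at 0.18, against 0.16 in the other 3. In all, 17 of the 117 genes were flagged, most of them mating-type genes. Outside mating type the flagged share of the named genes was near that 1 in 20. The genes of this paragraph were named from values of the same spores, so their flags add no independent support.

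Spore 3 stood apart in the mating-type genes, where spores 4, 6 and 8 were of the other type. Its differences were -1.24 for MFA1, -0.47 for MFA2, -0.35 for STE2, -0.24 for STE6, -0.55 for BAR1, -0.84 for AGA2 and -0.30 for ASG7. For MF(ALPHA)1 the difference of spore 3 was 0.00. HMLALPHA1, at 0.18 in spore 3, and HMRA1, at -0.22, lie on chromosome III and are given as a description, without a test. The mating-type genes were named as lists or for their wide range among these spores, so their flags add no independent support.

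Another set was flagged because the difference from the ancestor was not the same in the 4 spores as in spores 1, 2, 5 and 7, with an adjusted p below 0.05 in limma. The difference between the classes was -0.27 for RIP1, -0.26 for COX7, -0.25 for QCR10, -0.20 for QCR7, -0.16 for ATP7 and -0.15 for ATP3. Outside respiration it was -1.68 for COS12, -1.50 for YIR042C, -1.31 for YDR541C, -1.26 for YLL066W-B, -0.50 for COS8, -1.06 for FRE7 and 2.04 for AXL1.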

How the results depend on the processing

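Every difference of the spores from the ancestor rests on 1 ancestor array, whose signal over background was not replicated in its run. For the 4 spores against the ancestor, 0 genes were called in the fit as reported, 9 with all 17 haploid arrays and a term for the run, 10 with array weights and 1747 with no term for the run, where the median of all genes moved to 0.52. Leaving out each spore in turn gave 0 to 96, with 8 without spore 3 and 96 without spore 4. Of the 9 and the 10, 7 and 10 were among those 96. For all 8 spores, 0 became 33 with the classes kept apart. Between the 2 spore classes, 156 genes became 384 with the run term, 44 without it and 425 with array weights, and leaving out a spore in turn gave 66 to 392. Respiratory genes lower in the 4 spores, 12 as reported, became 19 with the run term, 0 without it and 7 without a trended prior, and 6 to 13 with a spore left out. Members below the ancestor in every spore were 16 to 47 for ribosome biogenesis with a spore left out, and members above it 13 to 29 for general stress, the highest counts being those without spore 4. Chromosome values reached 0.117 by means, against 0.0288 by medians. The genes called without spore 3 were mostly a-specific genes, which spore 3 expressed near the level of the ancestor. Causes of the shifts given here were not tested. Of 117 named genes over 18 alternatives, 1989 of 2103 values were counted as the same. For 16 of these genes this meant only that sign and call were kept. For the others it meant a shift below 1 SD of the 4 spores. That SD is wide where the spores differ in mating type, at 3.55 for MFA2, so large shifts count as the same there. Across all these values 40 changed sign, 31 of them with no run term. Alternatives for spores 1, 2, 5 and 7, for both classes and for list counts were chosen after seeing the data. No paired analysis was possible because the ancestor arrays carry no replicate number that pairs them with spores.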
